A study of Rana omeimontis with 6 samples.

Results

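Pre-mRNA splicing proteins were followed in liver RNA of Rana omeimontis tadpoles, a frog species. The members are all rows of the expression matrix whose leading protein description names a splicing factor, a small nuclear ribonucleoprotein (snRNP), a pre-mRNA-processing factor, a pre-mRNA-splicing factor, a heterogeneous nuclear ribonucleoprotein (hnRNP) or a U6-associated Sm-like protein. The rule uses the descriptions and not the change between stages, and it took 192 of 121726 rows. A row is an assembled transcript cluster, here called a feature. Of the 192 features, 150 reached at least 1 FPKM (fragments scaled for the length of the transcript and the size of the library) in at least 3 of the 6 libraries, and the other 42 stayed below that. Just inside this limit, a feature of SNRNP25 averaged 0.733 FPKM, and just outside it a sixth feature of PUF60 averaged 1.20 FPKM, with 0.53, 3.08 and 3.6 FPKM after and values listed at 0 before fat accumulation. Of the kept features 129 reached 1 FPKM in all 6 libraries, 2 were kept through before libraries alone (SNRNP25 and the second feature of DHX15) and 0 through after libraries alone. The 150 kept features carry the names of 91 proteins. The libraries fall into 2 groups, both of tadpole liver with no treatment or genotype named in the labels: 3 libraries after ontogenetic fat accumulation and 3 libraries before it. The labels give no age, sex or developmental stage number for either group, and do not say whether each library came from a separate animal or a pool. The p-values below therefore measure only the spread between these libraries, which may be technical.

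Splicing removes introns from a pre-mRNA in the spliceosome, which is built anew on each intron from the U1, U2, U4, U5 and U6 snRNPs. Each of the U1, U2, U4 and U5 RNAs carries a ring of Sm proteins, U6 carries a ring of LSm proteins, and every particle adds proteins of its own. A rarer class of introns is removed by the minor spliceosome, which uses the U11 and U12 particles instead of U1 and U2. SR proteins and hnRNPs bind the pre-mRNA and steer the choice of splice sites. Many SR and hnRNP genes are themselves alternatively spliced, so a single gene can give several transcripts. The classes below follow these roles: the core holds the Sm and LSm ring, the particle-specific snRNP proteins and the SF3 and U2AF proteins. The regulators are the SR proteins and hnRNPs, and 2 further classes hold Prp-type factors and the remaining splicing factors. Classes were assigned from the leading descriptions. The U5 proteins PRPF8 and PRPF6 therefore fell outside the core, among the remaining and the Prp-type factors. ZRSR2, described as related to a U2AF subunit, is counted among the particle-specific snRNP proteins. WTAP, described as a splicing regulator, is counted among the Prp-type factors. U2AF1 was not taken by the name rule and is in no class.

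The summed FPKM per library lay between 1358665 and 1442121, and low values stood most often at 1.031 to 1.059 times those of after replicate 1, which gives relative depth only. The share of splicing features in the summed FPKM was 0.229% ± 0.017 after and 0.181% ± 0.041 before fat accumulation (SD, n = 3 each). Before replicate 3 stood apart from its group, with a summed 3169.8 FPKM over the 150 features against 2379.9 and 2123.3 FPKM in the other before libraries. This offset was not confined to splicing features. Scale factors from the median ratio over the features tested were 1.03, 0.91 and 1.20 in before replicates 1, 2 and 3. In after replicates 1, 2 and 3 they were 1.03, 1.06 and 0.96, and the main fit does not apply them. The liver label was checked by markers: the share of hepatocyte markers was 0.833% to 0.920% after and 0.494% to 0.608% before, with albumin at 539, 475 and 353 FPKM after and 50.1, 69.8 and 14.97 FPKM before. Of 8 measured hepatocyte markers, 2 rose, albumin and transthyretin (TTR), and 0 fell. Transferrin (TF) had 810.2, 601 and 632 FPKM after fat accumulation, against 762, 582 and 1292 FPKM before it (log2 fold change -0.30), and FGA, APOA1, APOB and CPS1 also overlapped between stages. Markers of pancreatic acinar cells took 20.5% to 24.8% after and 18.2% to 28.4% before, so transcripts of pancreatic enzymes were abundant in libraries labelled liver. Of 8 measured acinar markers, 2 fell, CTRB1 and CLPS (log2 fold changes -1.34 and -0.74), and 0 rose. Red cell markers took 0.875% to 0.908% after and 0.546% to 0.714% before, and fibroblast markers 0.0033% to 0.0045% after and 0.0024% to 0.003% before, both without overlap. Single markers differed: the leading HBA and ALAS2 features overlapped, SLC4A1 lay higher after, and HBB had 0 FPKM after and 0, 95.2 and 148 FPKM before. COL1A2 rose and COL3A1 lay higher after, but COL1A1 lay lower in all after libraries (log2 fold change -1.75, adjusted p = 0.0574). Leukocyte markers took 0.0034% to 0.0051% after and 0.0046% to 0.0077% before. Of 9 measured markers of cycling cells, 7 rose after fat accumulation and none fell (median log2 fold change 1.58). The summed share of the 9 was 0.0122% to 0.0142% after against 0.0033% to 0.0054% before. The 7 were PCNA and MCM2 to MCM7. CDK1 lay higher in all after libraries but did not pass (log2 fold change 0.85, adjusted p = 0.148), and CCNB1 overlapped (log2 fold change -0.21). PCNA, the clamp of DNA replication, had 112, 97.2 and 109.5 FPKM after fat accumulation, against 42.1, 29.97 and 33.6 FPKM before it. MKI67, TOP2A, AURKB and PLK1 were matched to no feature by name. In bulk samples, fewer cells of a type and less RNA per cell cannot be told apart, and the part of cell composition in the results below was not tested.

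After fat accumulation more splicing features rose than fell. With limma on log2(FPKM + 1), fitted and Benjamini-Hochberg adjusted over all 40548 features, 20 of the 150 were higher and 8 were lower at an adjusted p under 0.05. Over all features tested 4.64% were higher and 4% lower, and the shares among the splicing features were 13.3% and 5.33%. Every splicing feature has a protein description by the rule. Of the 14725 features tested with a description, 929 were higher and 498 lower. Splicing features were more abundant than most, with a median of the mean FPKM of 9.42 against 2.63 over all features tested, and calls are more frequent among abundant features. At a mean of 5 FPKM or more, 18.1% of 105 splicing features were higher and 5.71% lower, beside 9.43% and 5.67% of all features at that level. The median log2 fold change, always after minus before, was 0.20 over the splicing features, -0.08 over all features tested and -0.02 over those with a description. In 56 splicing features all 3 after libraries lay above all 3 before libraries and in 26 they lay below, beside 15.7% and 16.8% of all features tested. The 26 include SNRNP25 and the second feature of DHX15, whose direction was fixed by the filter. Among the 14725 described features, 3034 lay above and 2688 below. An unadjusted p under 0.05 was reached by 65 of the 150, beside 26.6% of all features tested. The counts depended on single libraries: leaving out after replicates 1, 2 and 3 in turn gave 12, 2 and 2 higher features, and leaving out before replicates 1, 2 and 3 gave 3, 8 and 18. The lower features numbered 4, 3, 2, 3, 3 and 3 in the same order. Over all features tested, calls in either direction numbered 3502 with all libraries, and 1867, 764, 691, 853, 1350 and 1773 in that order. None of the 28 features past the threshold changed direction under any of the 20 other settings fitted feature by feature. All 4 features that passed in each of the 6 fits that left out 1 library are described below, in SRSF1, HNRNPH1, HNRNPDL and SFPQ.

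Class medians ranged from -0.26 to 0.69, and differences between classes were not tested. The Sm and LSm ring had the highest median log2 fold change, 0.69 over 13 features, with 2 higher and 0 lower. The hnRNPs had 0.64 over 32 features with 7 higher and 1 lower, and the SR proteins at 0.27 over 31 features with 6 higher and 0 lower. Particle-specific snRNP proteins had a median of 0.17 over 20 features (2 higher, 1 lower), Prp-type factors -0.01 over 24 (1 higher, 3 lower), the remaining splicing factors -0.15 over 18 (1 higher, 2 lower) and the SF3 and U2AF proteins -0.26 over 12 (1 higher, 1 lower). Summed per protein the order of the classes differed: the medians were 0.74 over 12 ring proteins, 0.40 over 16 hnRNPs, 0.35 over 16 particle-specific proteins, 0.10 over 9 remaining factors, 0.09 over 12 SR proteins, -0.01 over 17 Prp-type factors and -0.14 over 9 SF3 and U2AF proteins. As a whole the 45 core features had 5 higher and 2 lower and a median of 0.46, and the 63 regulator features had 13 higher and 1 lower and a median of 0.32. With the libraries left out in turn, in the order given above, the higher features numbered 4, 0, 0, 0, 2 and 5 in the core and 8, 2, 2, 3, 6 and 12 among the regulators. The lower features numbered 0 in the core and 1 among the regulators in each of those 6 fits. The stages did not overlap in 21 core features that lay above and 7 that lay below, nor in 27 regulator features that lay above and 7 that lay below. SNRNP25, whose direction was fixed by the filter, is among the core features below. Over all features tested, 15.7% lay wholly above and 16.8% wholly below, so both counts below were near or under that share. Calls over all features were 4.64% higher and 4% lower, and the lower calls in the core were near that share.

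**Figure D1:**
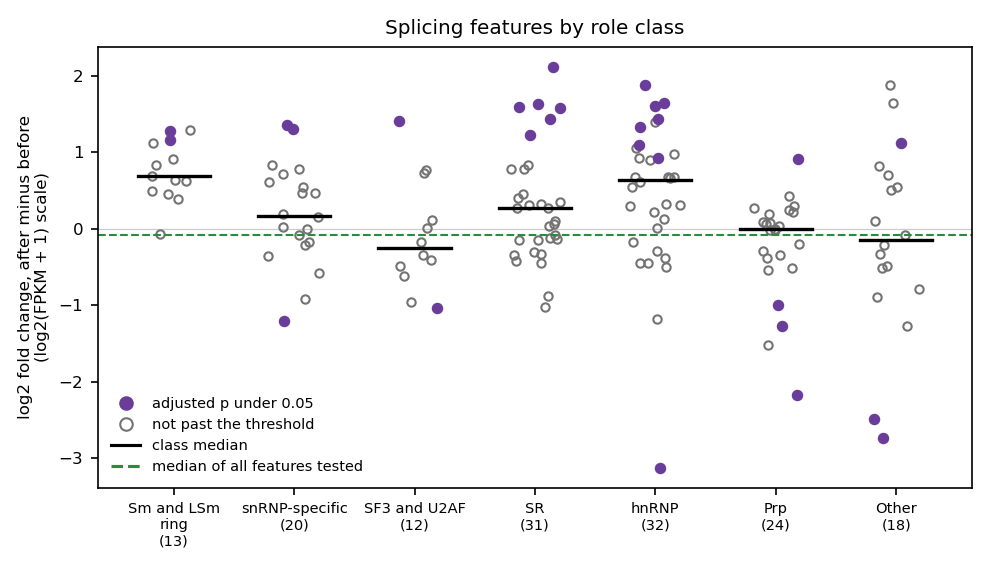
Log2 fold change from log2(FPKM + 1), after minus before, of the 150 splicing features by role class, with the number of features under each class; filled points have an adjusted p under 0.05, black bars are class medians and the dashed line is the median of all features tested. The ring and hnRNP medians, 0.69 and 0.64, stand highest, and the lowest single points belong to HNRNPDL, SFPQ and PUF60.

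All 6 Sm proteins kept under the name rule lay higher in every after library than in any before library, and 1 of them, SNRPG, passed the threshold. Of all features tested, 15.7% lay wholly above in this way. SNRPG, the SmG protein, had 139.9, 145 and 146 FPKM after fat accumulation, against 50.8, 54.4 and 72.4 FPKM before it. Its after libraries lay close together and all far above the highest before library. SNRPG rose (log2 fold change 1.28 ± 0.18 (SE), adjusted p = 0.0134), and it was past the threshold in 3 of the 6 fits that left out 1 library, with a highest adjusted p of 0.0614 without after replicate 2. SNRPD3 had 94.4, 109.6 and 106 FPKM after fat accumulation, against 41.6, 34.7 and 70.9 FPKM before it. SNRPD1 had 74.01, 96.9 and 101 FPKM after fat accumulation, against 45.5, 44.5 and 60.5 FPKM before it. In both, before replicate 3 was the highest before library, and neither passed the threshold (log2 fold changes 1.12 and 0.84, adjusted p = 0.0542 and 0.0541). SNRPD2 had 89.8, 78.3 and 75.3 FPKM after fat accumulation, against 52.4, 44.4 and 60.5 FPKM before it. SNRPF had 91.4, 98.2 and 86.4 FPKM after fat accumulation, against 56.6, 52.3 and 69.1 FPKM before it. SNRPE, at the lowest level of the group, had 24.8, 27.1 and 26.6 FPKM after fat accumulation, against 19.8, 15.4 and 21.6 FPKM before it. These 3 Sm proteins had log2 fold changes of 0.63, 0.63 and 0.46 and adjusted p of 0.0814, 0.0692 and 0.190. Summed over the 6 Sm features, the level was 514.4, 555.4 and 541.2 FPKM after, against 266.7, 245.7 and 355.0 FPKM before, a ratio of 1.857. The 3 features named for the Sm protein B (SNRPB) all stayed below 1 FPKM in at least 5 libraries and were not tested. A more abundant feature outside the name rule, described as snrpn-prov, a relative of protein B, overlapped between stages (values under Other observations). It is left out of the sum above, and whether it stands for protein B in this frog was not tested.

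Most LSm proteins also lay higher after fat accumulation, at lower levels than the Sm proteins. LSM6 had 26.9, 33.5 and 35.2 FPKM after fat accumulation, against 13.01, 14.1 and 13.8 FPKM before it. It rose (log2 fold change 1.16 ± 0.19 (SE), adjusted p = 0.0186), and it was past the threshold in 2 of the 6 fits that left out 1 library, with a highest adjusted p of 0.0785 without after replicate 3. LSM2 had 18.6, 32.2 and 31.1 FPKM after fat accumulation, against 8.98, 7.41 and 15.9 FPKM before it, with a wide spread and no overlap (log2 fold change 1.29, adjusted p = 0.0659). LSM7 had 17.9, 19.6 and 22.4 FPKM after fat accumulation, against 9.84, 7.06 and 14.5 FPKM before it, also without overlap (log2 fold change 0.91, adjusted p = 0.0921). The more abundant of the LSM1 features, which belongs to the cytoplasmic ring of mRNA decay and not to U6, had 17.1, 21.03 and 17.7 FPKM after fat accumulation, against 9.94, 8.99 and 15.2 FPKM before it. LSM3 and LSM5 overlapped between stages, with log2 fold changes of 0.39 and 0.49. The LSm features summed to 105.7, 143.2 and 144.1 FPKM after, against 63.7, 56.7 and 94.5 FPKM before, a ratio of 1.828. Within the ring class, 12 of 13 features had a positive log2 fold change, beside 18584 of 40548 over all features tested. In 10 of the 13, the after libraries lay wholly above the before libraries, beside 15.7% of all features tested. The exception in sign was the second LSM1 feature, which varied from 0.41 to 3.8 FPKM among before libraries alone. The rise of PCNA and the MCM markers given above ran in the same direction, and its part in the ring's shift was not tested.

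**Figure D2:**
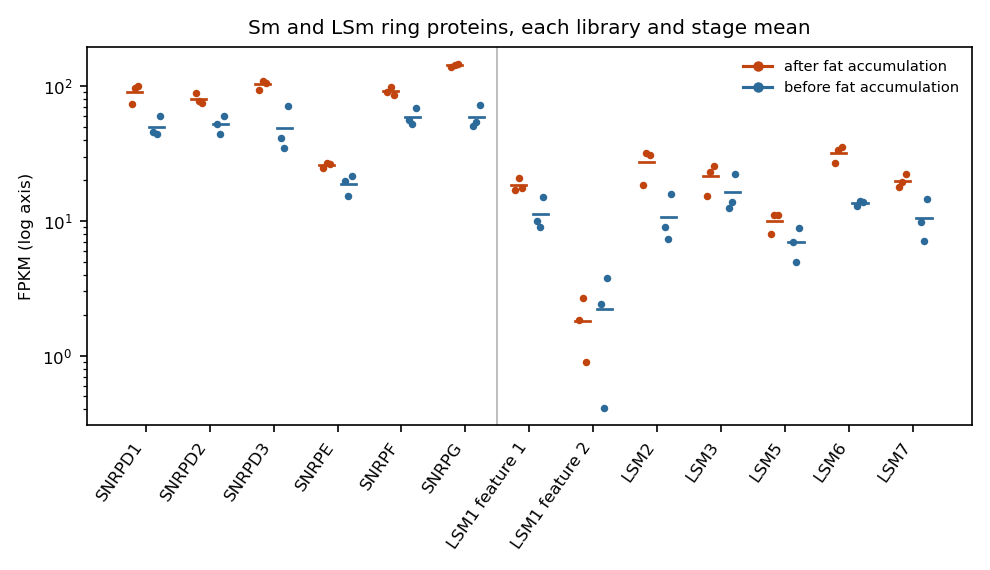
FPKM on a log axis of each Sm protein (left of the grey line) and LSm protein (right of it) kept under the name rule. Points are the 3 libraries of each stage and bars are stage means. SNRPG stands highest at 139.9 to 146 FPKM after and 50.8 to 72.4 FPKM before, and only LSM1 feature 2, LSM3 and LSM5 overlap between stages.

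Proteins that belong to a single particle were then set side by side, with the FPKM of all kept features of a protein summed. Among 3 U1 proteins, SNRPA (U1-A, which binds a stem-loop of U1 RNA) had 11.7, 17.8 and 14.9 FPKM after fat accumulation and 6.7, 5.09 and 7.5 FPKM before it, and rose (log2 fold change 1.08, adjusted p = 0.0446). SNRPC had 26.4, 35.4 and 37.4 FPKM after fat accumulation and 20.5, 14.4 and 19.4 FPKM before it, without overlap but short of the threshold (adjusted p = 0.0718). SNRNP70, the most abundant of the U1 proteins, had 102, 106 and 95.3 FPKM after fat accumulation and 76.4, 76.1 and 109.6 FPKM before it, and before replicate 3 lay above every after library. The U2 proteins SNRPB2 and SNRPA1, which bind U2 RNA as a pair, both lay higher in all after libraries. SNRPB2 had 8.68, 12.9 and 13.3 FPKM after fat accumulation and 3.6, 2.7 and 5.75 FPKM before it, and rose (log2 fold change 1.36, adjusted p = 0.0436). SNRPA1 had 33.2, 38.1 and 35.3 FPKM after fat accumulation and 21.6, 20.7 and 31.1 FPKM before it, and did not pass (adjusted p = 0.162). With fewer libraries most of these calls were lost: SNRPA passed in 0 of the 6 fits that left out 1 library and SNRPB2 in 1, with highest adjusted p of 0.141 without after replicate 2 and 0.138 without after replicate 3. SNRPA and SNRPB2 are close relatives, and reads could be shared between them.

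None of the 5 U5 proteins passed the threshold, and 3 of them lay wholly above after fat accumulation, beside 15.7% of all features tested. EFTUD2, the GTPase of U5, had 10.6, 11.8 and 11.4 FPKM after fat accumulation and 6.14, 5.42 and 6.91 FPKM before it (log2 fold change 0.78, adjusted p = 0.0577). SNRNP40 had 6.21, 7.54 and 8.23 FPKM after fat accumulation and 3.62, 3.89 and 4.72 FPKM before it (log2 fold change 0.71, adjusted p = 0.0956). SNRNP200, the helicase that unwinds U4 from U6, had 4.85, 6.15 and 5.22 FPKM after fat accumulation and 3.47, 2.97 and 4.6 FPKM before it. PRPF8, the scaffold of the catalytic centre, had 6.21, 6.52 and 5.54 FPKM after fat accumulation and 5.46, 4.7 and 6.82 FPKM before it. PRPF8 and PRPF6 overlapped between stages, with log2 fold changes of 0.10 and 0.08. The 3 U4/U6 proteins PRPF3, PRPF4 and PRPF31 overlapped between stages, with log2 fold changes of 0.001, 0.03 and 0.16 and standard errors of 0.26, 0.24 and 0.20.

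The 3 proteins of the minor U11/U12 particle that the name rule took, each with its features summed, lay lower in every after library than in any before library. Of all features tested, taken singly, 16.8% lay wholly below in this way. SNRNP48 had 2.38, 2.85 and 2.54 FPKM after fat accumulation and 6.79, 6.48 and 8.83 FPKM before it, and fell (log2 fold change -1.21 ± 0.22 SE, adjusted p = 0.0258). SNRNP25 had 0.49, 0 and 0.14 FPKM after fat accumulation and 1.32, 1.05 and 1.4 FPKM before it, close to the lower limit of the filter. SNRNP35, summed over 2 features, had 5.67, 5.15 and 3.62 FPKM after fat accumulation and 9.08, 5.75 and 6.72 FPKM before it. Its more abundant feature alone overlapped between stages, with 4.62, 3.7 and 2.85 FPKM after fat accumulation, against 6.76, 3.93 and 4.56 FPKM before it. Neither SNRNP25 nor the summed SNRNP35 passed the threshold (log2 fold changes -0.92 and -0.49, adjusted p = 0.0834 and 0.294). SNRNP25 was kept only through its before libraries, so its direction was fixed by the filter. SNRNP48 passed in none of the 6 fits that left out 1 library, with a highest adjusted p of 0.0896 without after replicate 3. ZRSR2, which recognises the 3′ splice site of minor introns, did not share this order: it had 1.57, 2.23 and 1.99 FPKM after fat accumulation, against 0.65, 1.24 and 1.15 FPKM before it (log2 fold change 0.55, adjusted p = 0.235).

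**Figure D3:**
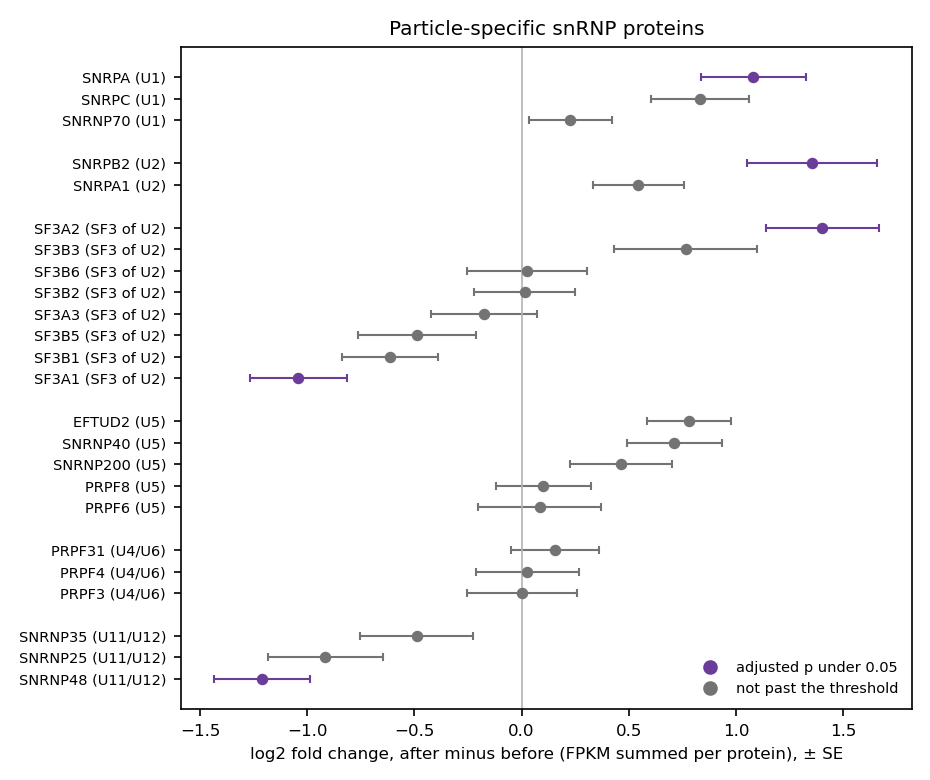
Log2 fold change (after minus before, FPKM of a protein's kept features summed) with its standard error for 24 proteins of single spliceosomal particles, grouped by particle; purple points have an adjusted p under 0.05. U1, U2 and U5 proteins lie at or right of 0, U4/U6 proteins at 0, the 3 U11/U12 proteins taken by the name rule left of 0, and SF3 proteins on both sides. The side of SNRNP25 was fixed by the filter, which it passed only through before libraries.

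Subunits of SF3, the U2-bound complex that settles on the branch point, did not move together: within the SF3A subcomplex 1 subunit fell and another rose. SF3A1 had 16.5, 22.9 and 22.1 FPKM after fat accumulation, against 41.3, 35.8 and 53.05 FPKM before it, and fell (log2 fold change -1.04 ± 0.23 (SE), adjusted p = 0.0402). SF3A2 had 4.67, 7.78 and 7.86 FPKM after fat accumulation, against 1.81, 1.77 and 2.06 FPKM before it, and rose (log2 fold change 1.404 ± 0.26 (SE), adjusted p = 0.0267). Their partner SF3A3 had 13.1, 17.4 and 17.7 FPKM after fat accumulation, against 19.01, 13.8 and 22.7 FPKM before it, and overlapped (log2 fold change -0.17). SF3A1 passed in none of the 6 fits that left out 1 library and SF3A2 in 1 of them, with highest adjusted p of 0.109 without before replicate 1 and 0.0981 without after replicate 3. SF3B1, the subunit that contacts the branch point, had 9.61, 9.88 and 8.57 FPKM after fat accumulation, against 14.5, 11.96 and 18.7 FPKM before it, lower in all after libraries but short of the threshold (log2 fold change -0.61, adjusted p = 0.140). The 4 other SF3B proteins, SF3B2, SF3B3, SF3B5 and SF3B6, overlapped between stages. U2AF2, the large subunit of the factor that binds the polypyrimidine tract, had 3 features, numbered from the highest mean level down. Feature 1 had 12.97, 20.5 and 20.0 FPKM after fat accumulation, against 10.5, 8.61 and 11.6 FPKM before it. Features 2 and 3 lay lower in all after libraries, feature 3 at 8.04, 8.39 and 5.31 FPKM after against 13.7, 14.2 and 16.4 FPKM before. None of the 3 passed (log2 fold changes 0.72, -0.41 and -0.95, adjusted p = 0.120, 0.310 and 0.0535), and their sum was 31.8, 38.97 and 35.9 FPKM after fat accumulation and 36.7, 35.1 and 46.8 FPKM before it.

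Among SR proteins, which bind exonic enhancers and recruit the early spliceosome, 6 features of 4 proteins rose and none fell, of 31 features. The leading SRSF1 feature had 13.8, 20.1 and 12.9 FPKM after fat accumulation, against 3.14, 2.13 and 3.13 FPKM before it, a ratio of means of 5.58. Every after library was several times the highest before library. It rose by the largest amount of any splicing feature (log2 fold change 2.12 ± 0.26 (SE), adjusted p = 0.00932) and passed in all 6 fits that left out 1 library. The leading SRSF3 feature had 16.2, 16.7 and 22.4 FPKM after fat accumulation, against 4.53, 6.26 and 5.55 FPKM before it (log2 fold change 1.59 ± 0.23 (SE), adjusted p = 0.0136). SRSF7, a relative of SRSF3, had 23.9, 29.04 and 32.95 FPKM after fat accumulation, against 7.51, 10.1 and 9.03 FPKM before it in feature 1. SRSF7 feature 3 had 10.4, 10.5 and 11.5 FPKM after fat accumulation, against 2.49, 3.52 and 4.2 FPKM before it. Both rose (log2 fold changes 1.58 and 1.44, adjusted p = 0.0119 and 0.0189). SRSF2 rose in features 2 and 3, with 19.3, 36.7 and 32.4 FPKM after fat accumulation, against 6.83, 7.78 and 11.5 FPKM before it for feature 2 (log2 fold change 1.63 ± 0.31 (SE), adjusted p = 0.0278). Its most abundant feature had 31.5, 29.2 and 26.2 FPKM after fat accumulation, against 19.6, 17.1 and 26.6 FPKM before it, with a before replicate above an after replicate (adjusted p = 0.241). SRSF5, the most abundant SR protein here, had 60.3, 101 and 92.5 FPKM after fat accumulation, against 91.8, 80.2 and 104 FPKM before it. The stages of SRSF5 overlapped widely (log2 fold change -0.15 ± 0.24 (SE), adjusted p = 0.737). SRSF4, SRSF6 and SRSF12 also had no feature past the threshold, and the summed SRSF6 features gave 50.9, 55.7 and 51.5 FPKM after fat accumulation and 47.7, 41.8 and 61.4 FPKM before it. The SRSF11 features lay on opposite sides, with log2 fold changes of -1.02 and 0.78 and adjusted p of 0.0594 and 0.110. Apart from SRSF1, the rising SR features passed in 0 to 4 of the fits that left out 1 library, and the highest adjusted p was 0.101, for SRSF2 feature 2 without after replicate 3. Summed per protein, SRSF2 and SRSF7 passed (log2 fold changes 0.94 and 0.87), while SRSF1 and SRSF3 did not (adjusted p = 0.0578 and 0.0640).

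Among the features the name rule took, the most abundant belonged to an hnRNP. HNRNPA1, a repressor of exon inclusion, had 245, 285 and 259 FPKM after fat accumulation, against 119, 100.1 and 152 FPKM before it in its leading feature, and all after libraries lay far above the before libraries. It rose (log2 fold change 1.10 ± 0.19 (SE), adjusted p = 0.0221), and it was past the threshold in 1 of the 6 fits that left out 1 library, with a highest adjusted p of 0.0869 without after replicate 2. Its second feature had 87.8, 90.8 and 83.2 FPKM after fat accumulation, against 51.6, 50.6 and 69.7 FPKM before it, and did not pass (adjusted p = 0.0869). HNRNPA2B1 had 5 features, of which features 3 and 4 rose. All 5 lay higher in every after library than in any before library, beside 15.7% of all features tested. Feature 3 had 18.8, 17.96 and 21 FPKM after fat accumulation, against 3.19, 7.28 and 3.72 FPKM before it (log2 fold change 1.89 ± 0.30 (SE), adjusted p = 0.0180). The most abundant had 30.6, 28.2 and 34.2 FPKM after fat accumulation, against 17.6, 16.1 and 24.5 FPKM before it (log2 fold change 0.67, adjusted p = 0.106). Summed, HNRNPA2B1 had 107, 96.2 and 101 FPKM after fat accumulation and 42.2, 40.4 and 50.5 FPKM before it, and rose (log2 fold change 1.18, adjusted p = 0.0128). HNRNPAB rose in both features, with 31.7, 49.7 and 42.2 FPKM after fat accumulation, against 15.3, 12.3 and 20.01 FPKM before it for the first (log2 fold change 1.33 ± 0.26 (SE), adjusted p = 0.0298). HNRNPH3 rose in the most abundant of its 3 features, with 66.5, 63.4 and 65.9 FPKM after fat accumulation, against 29.2, 32.4 and 41.6 FPKM before it (log2 fold change 0.92 ± 0.19 (SE), adjusted p = 0.0326). The rising features of HNRNPA2B1, HNRNPAB and HNRNPH3 passed in 1 or 2 of the fits that left out 1 library. Summed per protein, HNRNPA1 and HNRNPAB also passed (log2 fold changes 0.97 and 1.39), while HNRNPH3 did not (log2 fold change 1.02, adjusted p = 0.0517). HNRNPA1, HNRNPA2B1 and HNRNPAB are relatives of one another, and reads shared between them would tie their values.

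Other abundant hnRNPs did not pass the threshold. HNRNPC, which binds uridine tracts, had 98.5, 111 and 92.6 FPKM after fat accumulation, against 74.6, 68.6 and 99.01 FPKM before it (log2 fold change 0.33 ± 0.19 (SE), adjusted p = 0.337). HNRNPK, which binds cytidine-rich RNA, had 62, 72.5 and 67.6 FPKM after fat accumulation, against 40.3, 35.6 and 49.8 FPKM before it in its first feature, without overlap (log2 fold change 0.68 ± 0.19 (SE), adjusted p = 0.0700). HNRNPU, a nuclear scaffold protein, had 23.8, 27.4 and 26.7 FPKM after fat accumulation, against 19.9, 16.2 and 28.2 FPKM before it, and before replicate 3 lay above every after library (log2 fold change 0.30). HNRNPA0, HNRNPUL1 and the first HNRNPL feature also overlapped, with log2 fold changes of -0.18, -0.29 and 0.01. HNRNPR had 3.44, 3.33 and 3.15 FPKM after fat accumulation, against 1.5, 1.29 and 1.12 FPKM before it (log2 fold change 0.91, adjusted p = 0.0544). Of the regulators' features 1 fell, feature 3 of HNRNPDL, a paralog of HNRNPD.

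Prp-type and remaining factors, 42 features together, held 5 of the 8 decreases and 2 increases. Over all features tested, 4% were lower and 4.64% higher. At a mean of 5 FPKM or more, 5.71% of splicing features of any class were lower, beside 5.67% of all features at that level. Whether decreases were more frequent in these 2 classes than in the others was not tested. CWC25, needed for the first catalytic step in yeast, had 4.42, 5.03 and 3.55 FPKM after fat accumulation, against 19.9, 17.8 and 33.2 FPKM before it. It fell (log2 fold change -2.17 ± 0.29 (SE), adjusted p = 0.0114), and it was past the threshold in 5 of the 6 fits that left out 1 library, with a highest adjusted p of 0.0532 without after replicate 3. XAB2, a scaffold protein that acts in splicing and in transcription-coupled repair, had 7.68, 7.9 and 6.18 FPKM after fat accumulation, against 17.1, 15.6 and 25 FPKM before it, and fell (log2 fold change -1.27 ± 0.24 (SE), adjusted p = 0.0279). PRPF18, a factor of the second catalytic step, had 7.62, 6.28 and 7.6 FPKM after fat accumulation, against 14.8, 12.6 and 18.9 FPKM before it, and fell (log2 fold change -0.99 ± 0.23 (SE), adjusted p = 0.0442). In the opposite direction PRPF19, the ubiquitin ligase of the complex that joins the spliceosome at activation, had 11.3, 13.2 and 13.3 FPKM after fat accumulation, against 6.1, 5.22 and 7.4 FPKM before it, and rose (log2 fold change 0.92 ± 0.21 (SE), adjusted p = 0.0471). ISY1, which works with that complex, had 9.78, 11.9 and 13.7 FPKM after fat accumulation, against 4.21, 4.37 and 6.19 FPKM before it, and rose (log2 fold change 1.12 ± 0.24 (SE), adjusted p = 0.0382). XAB2, PRPF18 and PRPF19 passed in none of the 6 fits that left out 1 library, and ISY1 in 1, with highest adjusted p of 0.0999, 0.147 and 0.129 for XAB2, PRPF19 and ISY1 without after replicate 3 and 0.139 for PRPF18 without after replicate 2. The helicases DHX16, DHX32 and DHX38, the step factors CDC40 and SLU7 and the proteins CWC22 and RBM22 had log2 fold changes between -0.54 and 0.27 and none passed. None of the 5 PRPF39 features and none of the 3 WTAP features passed either.

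Several decreases belonged to 1 of several features under a protein name. SFPQ, a DNA- and RNA-binding partner of NONO, had 2 features of similar level before fat accumulation. The second had 5.17, 7.12 and 6.8 FPKM after fat accumulation, against 47.6, 37.1 and 61.9 FPKM before it, and its after libraries were far below every before library. It fell (log2 fold change -2.74 ± 0.25 (SE), adjusted p = 0.00456) and passed in all 6 fits that left out 1 library. The first feature had 24.7, 35.7 and 29.4 FPKM after fat accumulation, against 50.3, 48.4 and 57.9 FPKM before it, also without overlap (log2 fold change -0.79, adjusted p = 0.0561). HNRNPDL had 4 features, and feature 3 had 5.56, 11.5 and 9.33 FPKM after fat accumulation, against 72.6, 61.6 and 120.2 FPKM before it. That feature fell by the largest amount of any splicing feature (log2 fold change -3.12 ± 0.34 (SE), adjusted p = 0.00725) and passed in all 6 of those fits. The most abundant HNRNPDL feature had 114, 136 and 104 FPKM after fat accumulation, against 142, 113 and 223 FPKM before it, with overlap (log2 fold change -0.38, adjusted p = 0.426). Summed over its features, HNRNPDL lay lower in all after libraries but did not pass (log2 fold change -0.76, adjusted p = 0.0919). HNRNPH1, which binds guanine-rich RNA, showed opposite signs. Its first feature had 28.6, 29.7 and 28.3 FPKM after fat accumulation, against 9.45, 7.68 and 8.7 FPKM before it, and rose (log2 fold change 1.64 ± 0.18 (SE), adjusted p = 0.00703), in all 6 of those fits as well. Its second had 1.84, 0.75 and 1.64 FPKM after fat accumulation, against 3.18, 3.15 and 7.77 FPKM before it, and did not pass (log2 fold change -1.18, adjusted p = 0.109). PUF60, which binds uridine-rich RNA near the 3′ splice site, fell in feature 4, which had 1.73, 0.01 and 0.06 FPKM after fat accumulation, against 5.99, 9.05 and 6.26 FPKM before it (log2 fold change -2.48 ± 0.44 (SE), adjusted p = 0.0233), and it was past the threshold in 1 of the 6 fits that left out 1 library, with a highest adjusted p of 0.0825 without after replicate 3. Its 5 kept features summed to 32.1, 36.1 and 27.7 FPKM after fat accumulation and 23.6, 19.9 and 30.3 FPKM before it, with overlap (adjusted p = 0.331). That overlap rests on leaving out the features below the filter. The sixth had 0.53, 3.08 and 3.6 FPKM after and 0 before, and the seventh 1.22, 0 and 0 after and 0, 0 and 0.87 before.

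**Figure D4:**
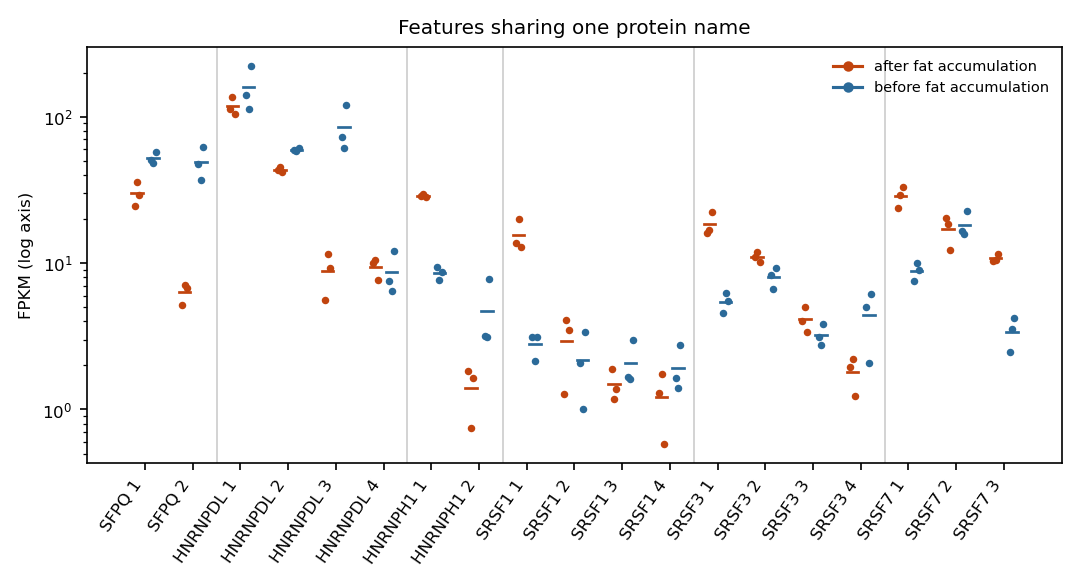
FPKM on a log axis of each kept feature of SFPQ, HNRNPDL, HNRNPH1, SRSF1, SRSF3 and SRSF7, numbered from the highest mean FPKM down; points are libraries and bars are stage means. SFPQ 2 and HNRNPDL 3 lie far lower after fat accumulation beside features of the same name that differ less, and SRSF1 1 lies higher beside 3 that overlap.

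Whether 2 features of a protein changed by different amounts was tested directly, with the log2 ratio of the 2 most abundant features as the value, over 2172 protein names of the whole table (limma, Benjamini-Hochberg adjusted over these pairs). The test was added after the values had been seen. HNRNPDL and PUF60 entered with their features 1 and 2, so HNRNPDL feature 3 and PUF60 feature 4 were not compared by it. Of 34 splicing proteins with 2 or more features, 2 passed, beside 1.75% of all pairs. Differently worded names were merged to a symbol only for splicing proteins. Other pairs needed the same name after prefixes, isoform tags and a trailing '-like' were trimmed, so the shares are not fully alike. The 2 SFPQ features carry differently worded descriptions and were paired only through the merging to a symbol. In SFPQ the log2 ratio of the first to the second feature was 2.06, 2.18 and 1.96 after, against 0.08, 0.37 and -0.10 before, a difference of 1.95 ± 0.26 (SE, adjusted p = 0.0242). In HNRNPH1 it was 3.38, 4.13 and 3.47 after, against 1.32, 1.06 and 0.15 before, a difference of 2.82 ± 0.41 (SE, adjusted p = 0.0342). Neither passed in any of the 6 fits that left out 1 library, with highest adjusted p of 0.113 and 0.121. SRSF1, SRSF11, SRSF7 and DHX15 came next, with adjusted p of 0.0773, 0.0773, 0.0806 and 0.0852. The second DHX15 feature was kept only through its before libraries, so the direction of its fall was fixed by the filter. How the clusters relate to isoforms, alleles or gene copies is not given in the sources used here. With FPKM summed per protein, 13 of the 91 proteins were higher and 6 lower, beside 4.63% and 4% of all rows of that fit. Only splicing features were summed there, so the other rows are single features, and abundance was not matched. With the libraries left out in the order given above, the higher proteins numbered 5, 0, 0, 0, 2 and 13 and the lower proteins 2, 2, 0, 1, 2 and 2.

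Of 68 listed splicing proteins that the name rule did not take, 51 were measured. Of these 3 rose and none fell (median log2 fold change 0.05), beside 4.64% and 4% of all features tested, so the share that rose was near that of all features. U2AF1, the small U2AF subunit that reads the end of the intron, had 69.5, 92.7 and 76.1 FPKM after fat accumulation, against 30.9, 31.5 and 40.95 FPKM before it, and rose (log2 fold change 1.18 ± 0.20 (SE), adjusted p = 0.0206). RBMX, an RNA-binding protein of the hnRNP type, had 25.6, 33.1 and 24.7 FPKM after fat accumulation, against 11.2, 9.27 and 12.4 FPKM before it, and rose (log2 fold change 1.27 ± 0.21 (SE), adjusted p = 0.0201). NCBP2, the small subunit of the nuclear cap-binding complex, had 23.5, 22.9 and 28.2 FPKM after fat accumulation, against 11.9, 10.1 and 13.8 FPKM before it, and rose (log2 fold change 1.003 ± 0.20 (SE), adjusted p = 0.0323). Its partner NCBP1 had 5.67, 6.46 and 7.17 FPKM after fat accumulation, against 3.33, 2.33 and 3.91 FPKM before it, without overlap but short of the threshold (adjusted p = 0.0820). DDX5, an RNA helicase and the most abundant protein of this list, had 367, 561 and 471 FPKM after fat accumulation, against 739, 685 and 1116 FPKM before it (log2 fold change -0.85, adjusted p = 0.0815). PPIH, a cyclophilin bound to U4/U6, had 18.6, 16.2 and 15.9 FPKM after fat accumulation, against 25.6, 26.3 and 38.5 FPKM before it (log2 fold change -0.78, adjusted p = 0.0773). The stages of DDX5 and PPIH did not overlap, and neither passed. TXNL4A, a small U5 protein, had 35.6, 27.8 and 23.1 FPKM after fat accumulation, against 17.5, 10.9 and 18.6 FPKM before it (log2 fold change 0.86, adjusted p = 0.103). NONO, the partner of SFPQ, had 58.3, 75.9 and 70.8 FPKM after fat accumulation, against 80.7, 80.96 and 117 FPKM before it (log2 fold change -0.42, adjusted p = 0.262). PTBP1, TRA2B, SRRM2 and RBM25 had log2 fold changes of 0.05, -0.04, -0.23 and -0.22 and overlapped between stages.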

How the data were processed

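Per the labels' protocols, poly-A RNA of liver went into paired-end Illumina libraries. The authors deposited a single FPKM matrix (fragments scaled to transcript length and to the mapped total). Per the file headers, its 6 value columns are the libraries and further columns describe matching proteins. Which programs assembled and quantified the transcripts is not given in the sources used here. Without transcript lengths and read totals the depth behind a value is unknown, and no counting interval is given. No reference genome was used.

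Features with 1 FPKM or more in 3 or more of the 6 libraries entered the fit. It used lmFit and trended eBayes of limma 3.58.1 (R 4.3.3) on log2 of FPKM with a pseudocount of 1, two-sided and with no covariate. Benjamini-Hochberg adjustment ran over 40548 features, with a threshold of 0.05. This scale understates changes of low features. Symbols come from protein names, and features of a protein are numbered by mean FPKM. Prefixes such as 'predicted', isoform tags and a trailing '-like' were trimmed from the names first. The features called HNRNPDL read hnRNP D after this trimming, a form in which D and D-like cannot be told apart. Clusters of one gene, or of close relatives, can share or split reads. The members, classes and lists were chosen with earlier results of these data known. Named features are up to 2 per class with the smallest p past the threshold, the 5 largest changes each way past it, the 5 highest levels, and the leading features of 25 core and regulator genes. Others named were chosen after their values were seen. Alternatives covered pseudocounts, filters, scalings, eBayes settings, library weights, summing per protein, a replicate block and each library left out. Deviations of same-numbered libraries were close to uncorrelated, which cannot tell whether these libraries share an origin.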

Additional observations from a re-analysis of the deposited data

How the results depend on the processing

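Among the 39 named features, no direction turned past the threshold under any setting. Leaving out 1 library gave 2 to 18 splicing features higher and 2 to 4 lower, 0 to 5 core features higher and 0 lower, 2 to 12 regulator features higher and 1 lower, 0 to 13 summed proteins higher and 0 to 2 lower, and 0 pairs of features. With no filter on low values, over more features tested, 7 splicing features were higher and 3 lower, 2 core features higher and 0 lower, 5 regulator features higher, and 2 summed proteins higher and 2 lower. A filter of 5 FPKM gave 10 core features higher, 2 regulator features lower and 22 summed proteins higher. A mean of 1 FPKM or more, equal FPKM totals, and eBayes without trend each gave 1 core feature lower. Median-of-ratios factors and a trimmed mean of log ratios each gave 37 splicing features higher, 15 in the core and 20 among regulators, with 2 regulator features lower and 26 summed proteins higher. Quantile normalization gave 15 splicing features lower, 9 core features higher and 4 lower, 4 regulator features lower and 23 summed proteins higher. Library weights gave 31 splicing features higher, 11 core features higher, 2 regulator features lower and 24 summed proteins higher. Rescaling without pancreas-marker features, chosen after seeing the data, gave 10 core features higher, 2 regulator features lower and 23 summed proteins higher. Summing FPKM per protein gave 13 proteins higher in place of 20 features, and 6 higher and 0 lower among regulators. A pseudocount of 0.1 left 1 pair of features. The replicate number as a block gave 0 splicing features higher and 2 lower, 0 in the core either way, 0 regulator features higher, 0 summed proteins either way and 0 pairs. Same-numbered libraries had correlations of deviations of -0.005, -0.039 and -0.088, beside -0.031 to 0.067 between differently numbered ones. With deviations taken within groups of 3 libraries, these values cannot tell whether same-numbered libraries share an origin. Calls over all features, in either direction, moved as well, from 3502 of 40548 in the main fit to 691 to 1867 with 1 library left out. The replicate block gave 339, no filter 1067 of 111336 and a filter of 5 FPKM 2866 of 12750. Median-of-ratios factors gave 4701, the trimmed mean 4702, quantile normalization 4588, library weights 4887 and rescaling without pancreas-marker features 4166. The cause of these moves was not tested where it is not named. Depth is unknown, and values near 1 FPKM are the least precise.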

Other observations

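Some proteins of the same particles carry descriptions outside the name rule, and 8 of them were looked up after the values of the others had been seen, so no test is drawn from them. LSM4, of the U6 ring, had 14.2, 13.8 and 18.7 FPKM after fat accumulation, against 9.26, 9.41 and 10.2 FPKM before it. LSM10, which takes the place of an Sm protein in the U7 particle that trims histone mRNA, had 14.1, 17.7 and 18.2 FPKM after fat accumulation, against 4.78, 2.84 and 4.33 FPKM before it. Both lay higher in every after library, and the other U7 protein LSM11 overlapped, with 4.4, 4.54 and 2.5 FPKM after and 4.36, 2.28 and 3.71 FPKM before fat accumulation. A feature described as snrpn-prov, a relative of the Sm protein B, had 119, 125 and 113 FPKM after fat accumulation, against 83.2, 85.4 and 115 FPKM before it, and before replicate 3 lay inside the range of the after libraries. PHF5A, a small SF3B subunit, had 14.9, 11.2 and 20.3 FPKM after fat accumulation, against 7.7, 6.45 and 4.97 FPKM before it, without overlap.

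Of the U11/U12 proteins among these 8, ZMAT5 had 12.7, 13.1 and 16.8 FPKM after fat accumulation, against 22.7, 20.04 and 26.7 FPKM before it. PDCD7, another protein of that particle, had 1.86, 1.57 and 0.86 FPKM after fat accumulation, against 3.23, 2.76 and 4.06 FPKM before it. The stages did not overlap in either, with the after libraries lower. ZCRB1 had 5.28, 5.78 and 1.69 FPKM after fat accumulation, against 5.43, 3.65 and 5.88 FPKM before it and overlapped.

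PUF60 features swapped places between libraries of the same stage. Its first and second features were at 0.16 and 0 FPKM in before replicate 2, where the third had 10.7 FPKM, and at 6.13 and 5.33 FPKM in before replicate 1, where the third had 4.65 FPKM. In after replicate 1 the third was listed at 0, and in after replicate 2 it had 6.6 FPKM. The sum over its features varied less, as given above.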
